A study of Mus musculus and Bos taurus with 6 samples.

Results

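The miR-193 and miR-365 miRNA are made from 4 mouse hairpins, miR-193a, miR-193b, miR-365-1 and miR-365-2, and they were followed here in the lactating mammary gland by arm, that is by which side of the hairpin each mature miRNA comes from. Members were all lines of the deposited quantifications with a mouse or bovine prefix whose name begins with miR-193a, miR-193b or miR-365, whatever their level. The rule found 7 of the 1750 lines listed for mouse and 5 of the 1539 listed for bovine, which is 12 of 3289 in all. In the bovine list, 2 further lines carry a human prefix, hsa-miR-193b-5p on the bovine miR-193b precursor and hsa-miR-365b-5p on the bovine miR-365-2 precursor, and they are given beside the members as the 5p arms of these precursors.

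Small RNA was sequenced in 6 libraries, with 2 in each of 3 groups. The mouse group was total RNA of the whole mammary gland of primiparous FVB/N mice at day 12 of lactation. The AGO2 group was RNA recovered with a monoclonal antibody against Argonaute 2 from lysates of glands of the same strain and day, and the study's methods describe 2 mice for the glands and 2 animals for the AGO2 libraries without tying a library to a mouse, so the groups may share animals. The bovine group was total RNA of mammary biopsies of multiparous Holstein cows at mid-lactation on a low forage diet, each library being a pool of 2 cows. No genotype or transgene was involved. RNA was isolated with the RNA NOW kit from mouse and AGO2 samples and with the Nucleospin miRNA kit from bovine samples, so species, kit and pooling cannot be told apart. Listed reads summed to 9299807 and 8391916 in the mouse libraries, 3909166 and 5041406 in the AGO2 libraries and 9402483 and 10613807 in the bovine libraries, and all levels are given as reads per 1000000 of these totals (RPM). A count of 0 allows up to 3 counts, which is between 0.283 RPM in bovine library 2 and 0.767 RPM in AGO2 library 1. Intervals and limits cover counting error only. By the study's methods the libraries of a group came from different animals, and p-values rest on the spread between 2 libraries in each group.

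The 7 miRNA fixed as markers of mammary epithelium (the miR-200 family, miR-205-5p and miR-148a-3p) were counted in all 6 libraries. They made up 24.8% and 27.5% of reads in mouse, 43.6% and 46.3% in AGO2 and 15.1% and 15.4% in bovine. The single markers went both ways. In AGO2 against mouse, 2 of the 7 were called higher (miR-200a-3p and miR-141-3p, at log2 fold changes of 1.58 and 1.34 in edgeR) and 2 lower (miR-200b-3p and miR-200c-3p, at -1.43 and -1.71). In bovine against mouse, 5 were called lower, and miR-205-5p was called higher at 1.89. Markers of other cell types also moved. The endothelial marker (miR-126a-3p in mouse, miR-126-3p in bovine) was at 1.63% and 2.05% of reads in mouse, 0.678% and 0.671% in AGO2 and 3.87% and 3.06% in bovine. In AGO2 against mouse, it was called lower (log2 fold change -1.30, adjusted p = 0.0274, edgeR). The other arm of its hairpin, miR-126a-5p, was called higher (1.18, adjusted p = 0.0422, edgeR), so the fall in AGO2 was of 1 arm only. The erythroid list was at 1.33% and 0.650% in mouse, 3.25% and 1.55% in AGO2, and 0.0269% and 0.0244% in bovine. Only 2 of its 3 miRNA were listed in bovine by name, without miR-451a-5p, so the bovine sums cannot be set against mouse. The paper reports miR-451a-5p in bovine at moderate to high abundance. Of the others, miR-144-3p was called lower in bovine against mouse (log2 fold change -6.82, adjusted p = 0.000602, edgeR). miR-486-5p was not called (-0.86). The leukocyte list was at 0.126% and 0.212% in mouse, 0.235% and 0.297% in AGO2, and 0.255% and 0.329% in bovine. Its members split in bovine against mouse. miR-150-5p and miR-155-5p were called higher (log2 fold changes of 2.13 and 1.86 in edgeR). miR-142-3p and miR-223-3p were called lower (-1.91 and -1.99), and miR-142-5p was not called (-0.11). The skeletal muscle list was at 163 and 213 RPM in mouse, 28.1 and 79.3 RPM in AGO2 and 727 and 782 RPM in bovine. Of this list, 4 miRNA were listed in mouse and 3 in bovine, so these sums cannot be set against each other across species. In bovine against mouse, miR-133a-3p (log2 fold change 0.86, adjusted p = 0.207, edgeR) and miR-206-3p (1.04, adjusted p = 0.523) were not called. In AGO2 against mouse, miR-1a-3p was called lower (log2 fold change -2.82, adjusted p = 0.00670, edgeR). miR-133a-3p went the other way (2.69) without a call (adjusted p = 0.152, edgeR). The hepatocyte miR-122-5p stayed at or under 2.87 RPM. The neuronal miR-124-3p was at 21.9 and 57.9 RPM in mouse and 13.3 and 9.12 RPM in AGO2. The part of these lists in the results below was not tested. In bulk tissue, fewer cells of a type and less RNA per cell cannot be told apart. Library to library spread was wide in mouse, where 44 of 171 miRNA of at least 100 RPM differed more than 2-fold between the libraries, and in AGO2 (46 of 167), and narrow in bovine (2 of 172).

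A miRNA hairpin is cut by Dicer into a duplex, 1 strand of which is usually kept in an Argonaute protein and guides it to target mRNA by pairing through the seed, bases 2 to 8 of the mature miRNA. The other strand is as a rule degraded. AGO2 is the Argonaute that can cut its target, and with its guide it forms the AGO2-RISC, the complex that silences target mRNA. The miR-193b and miR-365-1 pair was reported to promote brown adipocyte differentiation and is under the control of STAT5, the transcription factor activated by prolactin, in the mammary gland, where loss of miR-193b was reported to raise stem and progenitor activity.

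The mature miRNA are shown because both 3p arms of miR-193 share a seed, as do both 5p arms of miR-365, while miR-193a-5p, miR-193b-5p and miR-365-3p each have a seed of their own. Sequences are those of the deposited lists, written 5′ to 3′ with the seed in capitals, and the 7 mouse sequences are identical to the RefSeq entries of GRCm38.p6.
mmu-miR-193a-5p: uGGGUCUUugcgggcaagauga
bta-miR-193a-5p: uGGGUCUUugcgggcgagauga
mmu-miR-193b-5p: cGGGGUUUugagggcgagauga
mmu-miR-193a-3p: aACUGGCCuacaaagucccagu
mmu-miR-193b-3p: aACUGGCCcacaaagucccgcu
bta-miR-193b: aACUGGCCcacaaagucccgcuuu
mmu-miR-365-3p: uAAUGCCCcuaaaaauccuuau
mmu-miR-365-1-5p: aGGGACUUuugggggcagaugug
mmu-miR-365-2-5p: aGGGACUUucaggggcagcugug

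Both 3p arms of miR-193 carry the seed ACUGGCC and differ outside it at 3 positions counted from 1 at the 5′ end, U9C, A20G and G21C from miR-193a-3p to miR-193b-3p. The 5p arms of miR-193a and miR-193b do not share a seed, since U5G and C6U are within it, and they also differ at U1C, C11A and A16G. Between the species, the 5p arm of miR-193a differs at A16G from mouse to bovine, outside the seed, and the 3p arms of miR-193a and miR-365 are identical. The bovine miR-193b entry has no arm in its name and comes from the 3p side. It runs 24 bases against 22 in mouse. miR-365-3p is the same sequence from both miR-365 hairpins, so its reads cannot be divided between the loci. The 5p arms of the miR-365 hairpins can be told apart by U10C, G11A and A19C from miR-365-1-5p to miR-365-2-5p.

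In the mouse genome (GRCm38) the hairpins lie as a pair on each of 2 chromosomes, all on the plus strand. Mir193a (chr11:79711969-79712034) and Mir365-2 (chr11:79726400-79726511) are separated by 14365 bases. Neither overlaps another annotated gene. The nearest to Mir193a is the lincRNA Gm11205 at 6549 bases, and the nearest coding gene is Rab11fip4 at 13946 bases. Mir193b (chr16:13449523-13449601) and Mir365-1 (chr16:13453840-13453926) are separated by 4238 bases. Both lie within the span of Gm15738, an antisense gene of the minus strand, outside its exons, and 31994 and 36311 bases from the coding gene Mrtfb. The miR-193a hairpin is printed from RefSeq (GRCm38.p6) because the results below turn on its 2 arms, which are in capitals, the 5p arm first.
Mir193a hairpin: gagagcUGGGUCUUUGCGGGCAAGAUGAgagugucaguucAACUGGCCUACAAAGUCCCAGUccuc

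In mouse total RNA, 2 arms of the group stood well above the others. miR-193a-5p had 1180 reads (127 RPM) in library 1 and 689 reads (82.1 RPM) in library 2, with a mean of 104 RPM ± 31.7 (SD, n = 2). miR-365-3p had 1548 reads (166 RPM) and 333 reads (39.7 RPM), with a mean of 103 RPM ± 89.6 (SD, n = 2). The levels of these arms overlapped, and miR-365-3p was the less stable, with libraries 4.19-fold apart. The 3p arms of miR-193, which share a seed, were an order of magnitude lower. miR-193a-3p had 36 and 71 reads (3.87 and 8.46 RPM) and miR-193b-3p had 20 and 50 reads (2.15 and 5.96 RPM), and their ranges overlapped. miR-193b-5p was uneven, with 43 reads (4.62 RPM) in library 1 and 2 reads (0.238 RPM) in library 2. The 5p arms of miR-365 were near the limit of detection. In mouse library 1, miR-365-2-5p had 7 reads and miR-365-1-5p had 2 reads, and in library 2 neither had a read, which allows up to 0.357 RPM. The arms of the same locus therefore did not keep the same level from library to library. Library 1 was the higher for miR-365-3p, miR-193a-5p and miR-193b-5p, and library 2 was the higher for both 3p arms of miR-193.

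**Figure D1:**
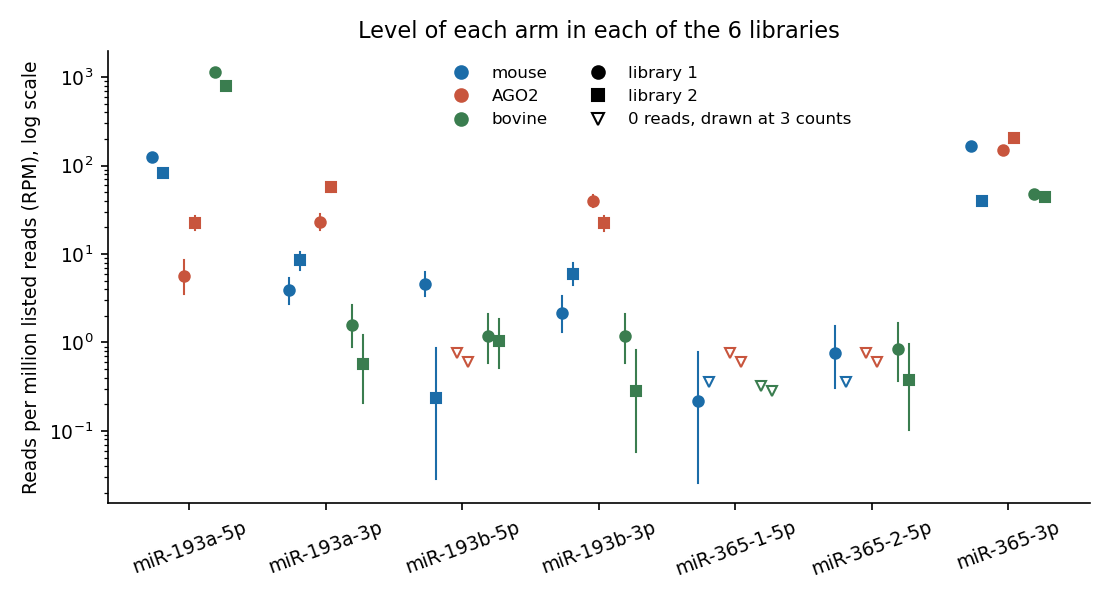
Level of each arm in RPM (vertical axis, log scale) in the 6 libraries, with the group in colour, the library number as the marker and 95% exact intervals of counting as lines; open triangles are libraries with 0 reads, drawn at the limit of 3 counts. miR-193a-5p is lowest in AGO2 (5.63 and 22.4 RPM) and highest in bovine (1145 and 795 RPM), while both 3p arms of miR-193 run the other way.

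AGO2-associated RNA held the arms in another order. The 3p arms of miR-193 were higher in both AGO2 libraries than in both mouse libraries, miR-193a-5p was lower, and no 5p arm of miR-193b or miR-365 was found. miR-365-3p had 586 and 1024 reads (150 and 203 RPM), against 166 and 39.7 RPM in mouse, so the groups overlapped. miR-193a-3p had 90 and 289 reads (23.0 and 57.3 RPM), both above the mouse libraries. miR-193b-3p had 157 and 112 reads (40.2 and 22.2 RPM), again both above mouse. miR-193a-5p had 22 and 113 reads (5.63 and 22.4 RPM), both below the mouse libraries. In AGO2 the ranges of miR-193a-3p and miR-193b-3p overlapped, and miR-365-3p was above both. miR-193a-5p was below miR-193a-3p in both libraries without overlap, and its highest library (22.4 RPM) was level with the lowest of miR-193b-3p (22.2 RPM). The miRNA tested here were the 299 whose largest count over the 4 libraries passed the cut-off of the study's own methods. In RPM, 31.1% of them were higher in both AGO2 libraries than in both mouse libraries, 42.1% were lower in both and 73.2% were either, so that a lack of overlap is common in this comparison.

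The test across miRNA asked which arms differed between AGO2-associated and total RNA beyond the spread of the libraries. It called 83 of the 299 miRNA (27.8%), 46 higher (15.4%) and 37 lower (12.4%), by edgeR with the Benjamini-Hochberg adjustment. Of the members, 3 passed the filter and 1 was called. miR-193a-3p passed it only through AGO2 library 2 (289 reads), and miR-193a-5p only through the mouse libraries (1180 and 689 reads). Each of these arms thus entered the test through the group where it was high. In AGO2, miR-193a-5p fell by 2.70 ± 0.880 on the log2 scale (SE, adjusted p = 0.0274, edgeR), which is 6.48-fold. The call was lost without mouse library 1 (adjusted p = 0.292, edgeR), mouse library 2 (0.0810) or AGO2 library 1 (0.152, at a log2 change of -1.68). It was kept without AGO2 library 2 (0.00332), where the log2 change was -4.10. miR-193a-3p had a log2 fold change of 2.86 ± 1.22 (SE), but an adjusted p of 0.0802 in edgeR. It was called by DESeq2 (adjusted p = 0.0235). In edgeR it was not called with library totals (adjusted p = 0.105), with a sum of at least 10 counts (0.347) or with no filter (0.514). With 1 library left out in turn, its log2 fold change ranged from 1.98 to 3.73, the highest without AGO2 library 1. miR-365-3p had a log2 fold change of 0.96 ± 0.702 (SE, adjusted p = 0.291, edgeR). Without mouse library 1 this was 2.27 (adjusted p = 0.113, edgeR).

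miR-193b-3p did not pass that cut-off, with a highest count of 157. In the fit of the 1168 lines with a sum of at least 10 counts, of which 6.51% were called, it had a log2 fold change of 2.96 ± 1.72 (SE, adjusted p = 0.438, edgeR). The median of that fit was 3.67 over all lines and -0.28 over the 572 lines of mouse miRBase. Without AGO2 library 1 the adjusted p was 0.0158 and without AGO2 library 2 it was 0.000169, where the lone AGO2 library is taken to vary as the mouse libraries do. For miR-193b-5p and both 5p arms of miR-365, the count was 0 in each AGO2 library, which allows up to 0.767 and 0.595 RPM. At this depth only the 4.62 RPM of miR-193b-5p in mouse library 1 exceeded that limit clearly, and no fold change is given.

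**Figure D2:**
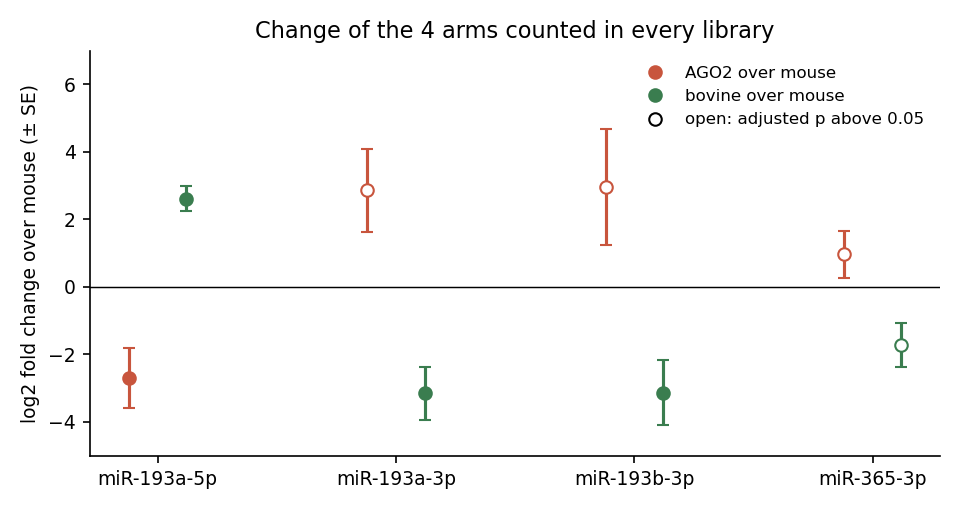
Change of the 4 arms in log2 over mouse (vertical axis, points with SE of the edgeR fit) for the AGO2 and bovine comparisons, filled where the adjusted p was under 0.05. miR-193a-5p is at -2.70 in AGO2 and 2.62 in bovine. The 3p arms of miR-193a and miR-193b are at 2.86 and 2.96 in AGO2 and at -3.16 and -3.13 in bovine. The 2.96 of miR-193b-3p comes from another fit than the other AGO2 points, that of 1168 lines. The median of that fit was 3.67 over all lines and -0.28 over the lines of mouse miRBase. The comparisons share the mouse libraries.

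Counting both arms of a hairpin in the same library removes the effect of depth and of scaling. For miR-193a, the 5p arm was the main arm in total RNA and the 3p arm the main arm in AGO2. The 5p arm took 97.0% of 1216 reads of both arms in mouse library 1 (exact 95% interval 95.9% to 97.9%) and 90.7% of 760 reads in mouse library 2 (88.4% to 92.6%). It took 19.6% of 112 reads in AGO2 library 1 (12.7% to 28.2%) and 28.1% of 402 reads in AGO2 library 2 (23.8% to 32.8%). There were thus 32.8 and 9.70 reads of the 5p arm for each of the 3p arm in mouse, and 4.09 and 2.56 reads of the 3p arm for each of the 5p arm in AGO2. The means were 93.8% ± 4.51 and 23.9% ± 5.99 (SD, n = 2 libraries in each group), and the difference of 70.0 percentage points was far above the spread of either group. An exact permutation test of 2 against 2 libraries cannot go below p = 0.333, which is the value obtained.

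The same shares were taken over all mouse precursors with both arms listed and at least 20 reads in each of the 4 libraries, 176 in all. The 5p share was lower in both AGO2 libraries than in both mouse libraries in 66 of them (37.5%), and the median change was -0.23 percentage points. The change of miR-193a was the fourth lowest of the 176. A majority of 5p reads in both mouse libraries turned into a majority of 3p reads in both AGO2 libraries in 7 of 107 precursors, which were let-7d, miR-34c, miR-193a, miR-350, miR-574, miR-674 and miR-7a-1. The opposite turn was seen in 3 precursors. The arms were also tested for an unequal change within a precursor in edgeR, a test added after the shares had been seen. It called 45 of 176 precursors (25.6%), 33 of them (18.8%) with a fall of the 5p arm relative to the 3p arm. For miR-193a the 5p arm fell by 5.54 on the log2 scale relative to the 3p arm (adjusted p = 0.0118, edgeR). The call was lost without mouse library 1 (adjusted p = 0.345, edgeR) and without mouse library 2 (0.0880), with log2 changes of -4.78 and -6.53.

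**Figure D3:**
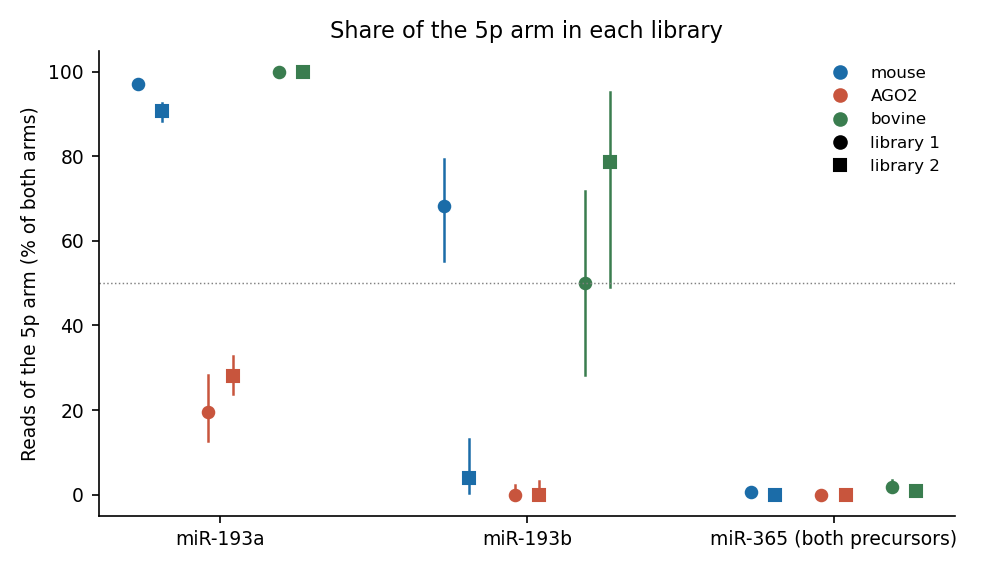
Reads of the 5p arm in percent of the reads of both arms (vertical axis) for miR-193a, miR-193b and miR-365 in the 6 libraries, with exact 95% intervals as lines and a dotted line at 50%. For miR-193a the AGO2 libraries (19.6% and 28.1%) lie apart from mouse (97.0% and 90.7%) and bovine (99.9% in both), and miR-365 is close to 0 throughout.

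For miR-193b the arms of total RNA differed between the mouse libraries. The 5p arm took 68.3% of 63 reads in mouse library 1 (exact 95% interval 55.3% to 79.4%) and 3.85% of 52 reads in mouse library 2 (0.469% to 13.2%). In AGO2 it had 0 of 157 and 0 of 112 reads, which allows a share of up to 1.91% and 2.68%. The shares did not overlap between the groups, but the interval of mouse library 2 overlapped those of AGO2. The edgeR test of the arms gave an adjusted p of 0.0172, and without mouse library 1 it gave 0.390. For miR-365, with the 5p arms of both precursors added, the 3p arm was dominant everywhere. The 5p arms took 0.578% of 1557 reads in mouse library 1, 0 of 333 reads in mouse library 2, and 0 of 586 and 0 of 1024 reads in AGO2, which allows up to 0.512% and 0.293%. The edgeR test of these arms gave an adjusted p of 0.179, and no difference was detectable at this depth.

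**Figure D4:**
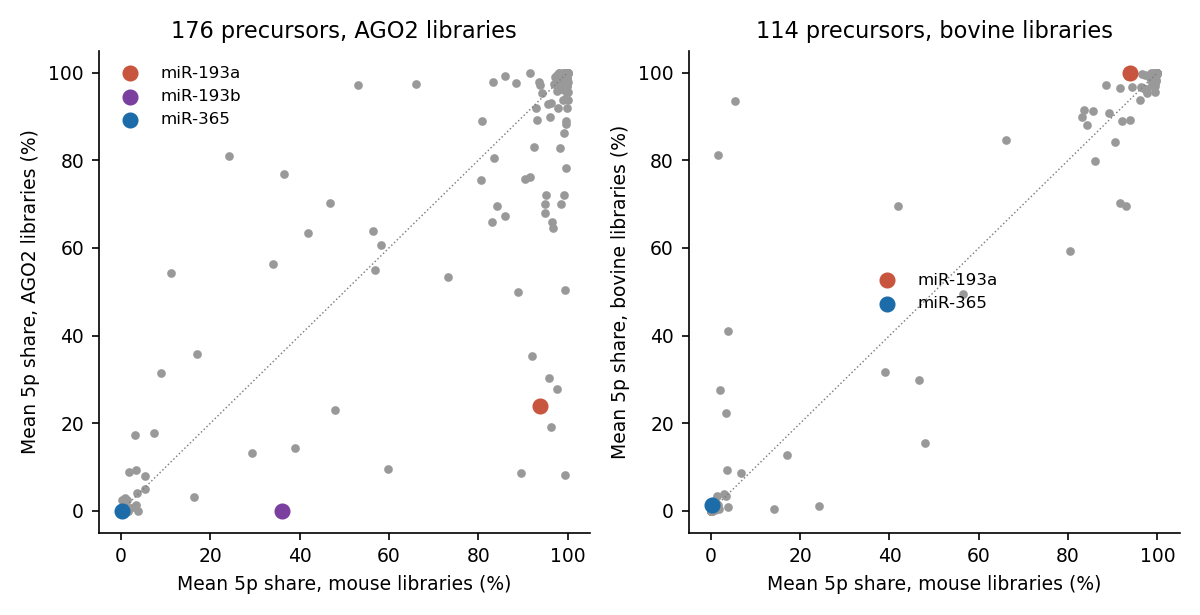
Mean 5p share of each precursor in mouse (horizontal axis, %) against AGO2 (left, vertical axis, %, 176 precursors) and against bovine (right, vertical axis, %, 114 precursors), with a dotted line where the shares are equal. miR-193a is at 93.8% and 23.9% on the left and at 93.8% and 99.9% on the right; miR-193b is shown on the left only, as it had under 20 reads in bovine library 2.

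In bovine glands, miR-193a-5p was far above every other arm of the group. It had 10764 and 8443 reads (1145 and 795 RPM), which placed it at rank 79 and 86 among the listed lines, against rank 155 and 163 in mouse. The mean was 970 RPM ± 247 (SD, n = 2), and both bovine libraries were above both mouse libraries. miR-365-3p was next with 448 and 467 reads (47.6 and 44.0 RPM), within the range of the mouse libraries (166 and 39.7 RPM). With the TMM scaling of the test below, both bovine libraries (42.7 and 44.5 CPM) were under both mouse libraries (227 and 60.6 CPM). The other arms were near or below 1 RPM. miR-193a-3p had 15 and 6 reads (1.60 and 0.565 RPM) and miR-193b-3p had 11 and 3 reads (1.17 and 0.283 RPM), all below the mouse libraries. In RPM, 50% of the 220 miRNA compared below were higher in both bovine libraries than in both mouse libraries and 31.4% were lower. The human-named line of miR-193b-5p had 11 reads in each library (1.17 and 1.04 RPM), which overlapped miR-193a-3p and miR-193b-3p. The human-named line of miR-365b-5p had 8 and 4 reads, and bta-miR-365-5p had none, which allows up to 0.319 and 0.283 RPM. The members summed to 0.120% and 0.0840% of bovine reads, 0.0305% and 0.0136% of mouse reads, and 0.0219% and 0.0305% of AGO2 reads.

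Bovine was set against mouse over the 220 miRNA that share name and arm in both lists and have a sum of at least 10 counts. Of these, 118 were called (53.6%), 54 higher (24.5%) and 64 lower (29.1%), so that a call is more common than not here. Of the 4 members tested, 3 were called. miR-193a-5p rose 6.14-fold in bovine, with a log2 fold change of 2.62 ± 0.362 (SE, adjusted p = 0.00383, edgeR). With 1 library left out in turn, its log2 fold change ranged from 2.43 to 3.22, the highest without mouse library 1. There the lone library of a group was taken to vary as the other group does. The rise of miR-193a-5p was 9.28-fold with library totals in place of TMM. miR-193a-3p fell by 3.16 ± 0.799 on the log2 scale, which is 8.92-fold (SE, adjusted p = 0.0231, edgeR). With library totals this was 5.70-fold. Its call was lost without bovine library 2 (-2.65, adjusted p = 0.151, edgeR) and kept at -2.34 without mouse library 2 and at -3.95 without bovine library 1. miR-193b-3p fell by 3.13 ± 0.964 on the log2 scale, which is 8.76-fold (SE, adjusted p = 0.0402, edgeR). With library totals this was 5.57-fold and not called (adjusted p = 0.0549, edgeR). The call was also lost without mouse library 2 (-2.07, adjusted p = 0.0913, edgeR), bovine library 1 (-4.31, 0.0578) or bovine library 2 (-2.49, 0.230), and it rests on 14 bovine reads in all. miR-365-3p had a log2 fold change of -1.72 ± 0.660 (SE, adjusted p = 0.0748, edgeR), which was -0.12 without mouse library 1 and was called without mouse library 2, at -2.34 (adjusted p = 0.000278). The mouse sequence of miR-193a-5p differs from the bovine one, so this arm has no value when lines are matched by identical sequence.

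Within the miR-193a hairpin the 5p arm was even more dominant in bovine than in mouse. It took 99.9% of 10779 and 99.9% of 8449 reads (lower bounds of the exact 95% intervals 99.8% in both), with 718 and 1407 reads of the 5p arm for each of the 3p arm. Both bovine libraries were above both mouse libraries, as were those of 41 of the 114 precursors of both species with at least 20 reads in each library (36%). The exact permutation test again gave its smallest value, p = 0.333. The edgeR test of the arms called 45 of the 114 precursors (39.5%), 28 of them (24.6%) with a rise of the 5p arm relative to the 3p arm. For miR-193a this rise was 5.73 on the log2 scale (adjusted p = 0.000116, edgeR). With 1 library left out in turn, this rise ranged from 4.79 to 6.54. There the lone library of a group was taken to vary as the other group does. For miR-193b, the 5p arm took 11 of 22 and 11 of 14 bovine reads, with intervals of 28.2% to 71.8% and 49.2% to 95.3%, which overlapped the mouse range. For miR-365 it took 1.75% of 456 and 0.849% of 471 reads, and the edgeR test gave an adjusted p of 0.409, or 0.0145 without mouse library 1.

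Summed by seed, the miRNA that carry ACUGGCC were at 6.02 and 14.4 RPM in mouse, 63.2 and 81.5 RPM in AGO2 and 2.77 and 0.848 RPM in bovine. In mouse, miR-193a-3p, miR-193b-3p and 1 predicted line with 10 reads in all carried this seed. The seed of miR-193a-5p, GGGUCUU, was found in no other listed line of either species, nor was AAUGCCC of miR-365-3p. The ratio of miR-193a-3p to miR-193b-3p lay between 0.573 and 2.58, at 1.80 and 1.42 in mouse, 0.573 and 2.58 in AGO2 and 1.36 and 2.00 in bovine. The ratio of miR-365-3p to miR-193b-3p, the arms that could come from the chr16 pair, ranged widely, at 77.4 and 6.66 in mouse, 3.73 and 9.14 in AGO2 and 40.7 and 156 in bovine.

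Likeness of pattern was measured as the root mean square distance between log2 levels centred over the 6 libraries, against 208 other miRNA found in both species. For miR-193a-5p the nearest were miR-379-5p (distance 0.303 on the log2 scale), miR-224-5p (0.640) and miR-363-3p (0.829), where the median over all was 2.32. Its own 3p arm was at 4.26. For miR-193a-3p the nearest were miR-30b-5p (0.353), miR-484-5p (0.486) and miR-193b-3p (0.632). For miR-193b-3p the nearest were miR-193a-3p (0.632), miR-30b-5p (0.686) and miR-200a-3p (0.757). For miR-365-3p the nearest were miR-30d-5p (0.637), miR-149-5p (0.677) and miR-99b-5p (0.736), with miR-193a-3p at rank 55 and miR-193b-3p at rank 64. These distances rest on 3 groups of 2 libraries and are a description.

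As miR-193b and miR-365 are known from brown fat, a list of 17 other miRNA with a reported role in brown or beige adipocytes was set beside them. In AGO2 against mouse, 16 were tested, of which 3 were higher, 2 were lower and 11 were not called, with a median log2 fold change of -0.57 against -0.12 over all 299. In bovine against mouse, 15 were tested, of which 2 were higher, 3 were lower and 10 were not called, with a median of 0.05 against -0.11 over all 220. miR-30b-5p, which is reported to promote brown adipocyte differentiation together with miR-30c-5p, was at 293 and 413 RPM in mouse, 1040 and 2063 RPM in AGO2 and 101 and 112 RPM in bovine. It rose in AGO2 by a log2 fold change of 2.30 ± 0.642 (SE, adjusted p = 0.00976, edgeR) and fell by 2.34 ± 0.391 in bovine (adjusted p = 0.00556). miR-30c-5p also rose in AGO2 (1.75 ± 0.636, adjusted p = 0.0473, edgeR) and fell by 3.97 ± 0.375 in bovine (adjusted p = 0.00144). miR-455-3p, reported to favour brown adipogenesis, was higher in both comparisons, by 2.23 ± 0.690 in AGO2 (adjusted p = 0.0192, edgeR) and 1.54 ± 0.320 in bovine (adjusted p = 0.0121). The other arm, miR-455-5p, also on the list, was called in neither. It was at 0.33 in AGO2 (adjusted p = 0.795, edgeR) and -0.86 in bovine (adjusted p = 0.168). In AGO2, miR-196a-5p fell by 4.20 ± 0.911 (adjusted p = 0.00177, edgeR) and miR-34a-5p, reported to restrain fat browning, fell by 3.34 ± 0.670 (adjusted p = 0.00101). In bovine, miR-155-5p, an inhibitor of brown adipocyte differentiation, was higher by 1.86 ± 0.426 (adjusted p = 0.0172, edgeR) and miR-182-5p fell by 2.46 ± 0.324 (adjusted p = 0.00347). The list thus moved in both directions in each comparison, at 5 of 16 and 5 of 15 called, beside 27.8% and 53.6% over all miRNA tested.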

How the data were processed

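Counts per mature miRNA were deposited by the authors for each library. For this the authors trimmed the poly-A tail added during library preparation, selected lengths of 17 to 28 nt, mapped with the miRDeep2 quantifier to precursors of miRBase 20 and to predicted precursors, and removed redundant lines (GRCm38 and UMD3.1, per the labels). A second deposited column, unit other, holds the same counts times 1 constant per library and was not used, nor were the lists of predictions. RPM refer to the total of the counts listed in a library. Groups were taken from the labels. Counts were tested with edgeR 4.0.16 (TMM, quasi-likelihood F test, two-sided, Benjamini-Hochberg, adjusted p under 0.05), with SE as the log2 fold change over the square root of F, and for unequal arms with its diffSpliceDGE. DESeq2 1.42.0 in R 4.3.3 was an alternative, as were other scalings, filters, matching and each library left out. Shares have exact Clopper-Pearson intervals. The procedures were tested on simulated data with a spread set in advance and not fitted to these libraries. Error rates at the spread seen here were not tested. Named miRNA were all members, other-prefix lines with their names, the 3 nearest miRNA of 4 arms (sum of at least 60 counts over 6 libraries, log2 of TMM CPM + 1) and a fixed adipocyte list. Members and lists were chosen with earlier results of these data known. No bovine genome was used.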

Additional observations from a re-analysis of the deposited data

How the results depend on the processing

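Depth limited the 5p arms of miR-193b and miR-365 and the bovine 3p arms of miR-193, and 2 libraries per group limited the tests. No paired analysis was possible because the labels give the groups no shared numbers and no source ties an AGO2 library to the total RNA of the same mouse. Where 1 library was left out, the lone library of its group was taken to vary as the other group does. No direction was reversed in any of the alternatives run.

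With AGO2 against mouse, leaving out 1 library gave 50 to 90 called miRNA, the lowest without mouse library 1. The log2 fold change then ranged from -4.10 to -1.68 for miR-193a-5p, 1.98 to 3.73 for miR-193a-3p, 2.43 to 3.70 for miR-193b-3p and 0.29 to 2.27 for miR-365-3p. With no filter miR-193a-5p was at -2.83 and no longer called (adjusted p = 0.0953, edgeR). DESeq2 called miR-193a-3p at 2.96, while edgeR did not call it with library totals, a sum of at least 10 counts or no filter. With bovine against mouse, leaving out 1 library gave 63 to 164 called miRNA, 71 without bovine library 1 and 63 without bovine library 2. The log2 fold change ranged from 2.43 to 3.22 for miR-193a-5p, -3.95 to -2.34 for miR-193a-3p, -4.31 to -2.07 for miR-193b-3p and -2.34 to -0.12 for miR-365-3p. The filter of 100 RPM gave 77 calls among 139 miRNA and matching by sequence 78 among 192, with fewer miRNA tested in both. With library totals alone miR-193b-3p was at -2.48 and no longer called (adjusted p = 0.0549, edgeR), miR-193a-3p was at -2.51 and miR-193a-5p at 3.21, both still called. miR-365-3p was called by DESeq2 at -1.47 and with no filter at -1.75. The median log2 fold change over all miRNA was -0.11 with TMM, 0.14 with size factors of DESeq2 and 0.50 with library totals, and 54 higher and 64 lower calls became 75 and 49 with library totals. In AGO2 against mouse it was -0.12, -0.01 and -0.27.

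The 5p share of the lone library left ranged from 90.7% to 97.0% in mouse, 19.6% to 28.1% in AGO2 and 99.9% to 99.9% in bovine for miR-193a, from 3.85% to 68.3%, 0% and 50% to 78.6% for miR-193b, and from 0% to 0.578%, 0% and 0.849% to 1.75% for miR-365. Scaled by TMM over the 6 libraries, the mean level in AGO2 moved from 40.2 to 65.4 CPM for miR-193a-3p, from 31.2 to 46.4 CPM for miR-193b-3p and from 177 to 278 CPM for miR-365-3p, and in bovine from 45.8 to 37.3 CPM for miR-365-3p.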
